A study of Homo sapiens with 15 samples.

Results

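EGLN3, PLIN2, DDIT4 and ANGPTL4 are 4 hypoxia genes that carried HIF2α peaks, and no BMAL1 peak, in the CUT&RUN peak lists of 786-O cells. They were chosen by the called HIF2α and BMAL1 peaks of these same lists, so the presence of HIF2α and the absence of BMAL1 are given here as a description and not as a finding. A peak was assigned to a gene when its summit lay closest to a start site of that gene among all protein-coding start sites, or lay inside the gene. In all, 2719 protein-coding genes had a peak in any of the 4 lists, and the pattern of HIF2α peaks in both lists without a BMAL1 peak was held by 379 of 20149 genes (1.88%). These 379 were 56.9% of the 666 genes with HIF2α peaks in both lists, so most such genes had no BMAL1 peak.

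CUT&RUN releases and sequences the DNA around an antibody bound to chromatin. 786-O is an established line of clear cell renal cell carcinoma that lacks functional VHL, the protein that marks HIF subunits for destruction. The cells expressed a lentiviral shRNA, either a scrambled control (shControl) or one that depletes BMAL1 (shBMAL1), were selected in puromycin at 2.5 µg/mL as infected cells rather than as named clones, and entered the assay at 100000 cells per reaction. The 15 libraries form 6 groups. HIF2α was profiled in 3 shControl and 3 shBMAL1 libraries, BMAL1 in 3 shControl and 2 shBMAL1 libraries, and 4 IgG libraries had no peak list. The authors deposited 1 list for each group, which left no error between libraries, so no difference between lists could be tested and every comparison is a description of the lists. The HIF2α lists held 1204 peaks in shControl and 1089 in shBMAL1 cells, and the BMAL1 lists held 1812 and 768. Peak lists hold neither reads nor transcripts, so that depth, the extent of BMAL1 depletion and the identity of the cells were not measured here.

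HIF2α, encoded by EPAS1, pairs with ARNT and binds the hypoxia response element (HRE), whose core reads ACGTG or GCGTG. Without VHL it is stable in the presence of oxygen and drives genes of oxygen sensing, lipid storage and growth control in this tumor. BMAL1 belongs to the same protein family, pairs with CLOCK in the circadian clock and binds the E-box CACGTG, a sequence that contains the HRE core.

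The 4 genes had different roles in this response. EGLN3 encodes a prolyl hydroxylase that marks HIF subunits for VHL and is itself induced by them. PLIN2 encodes a coat protein of lipid droplets, and ANGPTL4 a secreted inhibitor of lipoprotein lipase. DDIT4, also called REDD1, restrains mTORC1 under stress. In hg19, EGLN3 (ENSG00000129521) spans chr14:34393433-34931980 on the minus strand, PLIN2 (ENSG00000147872) chr9:19108373-19149288 on the minus strand, DDIT4 (ENSG00000168209) chr10:74033678-74035794 on the plus strand and ANGPTL4 (ENSG00000167772) chr19:8428173-8439254 on the plus strand.

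The genome sequence under 6 of the HIF2α summits is shown because these sites hold a strong peak of each gene called in both lists, the promoter peak, the site with an E-box or a site with a large difference between the lists. Each is the plus strand of hg19, 5′ to 3′, in a window of 200 bases at the shControl summit, with HRE cores of either strand in capitals. At the DDIT4 start the window was ended at the last base before the transcript and holds 133 bases.
EGLN3 84.8 kb upstream, chr14:34504972-34505171: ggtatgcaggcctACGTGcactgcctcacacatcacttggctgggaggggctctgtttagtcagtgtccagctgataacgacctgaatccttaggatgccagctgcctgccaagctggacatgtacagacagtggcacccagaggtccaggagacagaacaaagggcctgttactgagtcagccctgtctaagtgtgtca
EGLN3 109.4 kb upstream, chr14:34529548-34529747: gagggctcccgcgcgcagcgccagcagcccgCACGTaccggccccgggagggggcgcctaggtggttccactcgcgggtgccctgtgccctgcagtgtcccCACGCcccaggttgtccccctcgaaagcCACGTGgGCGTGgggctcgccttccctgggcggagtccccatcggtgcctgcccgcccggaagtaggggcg
PLIN2 34.5 kb upstream, chr9:19161867-19162066: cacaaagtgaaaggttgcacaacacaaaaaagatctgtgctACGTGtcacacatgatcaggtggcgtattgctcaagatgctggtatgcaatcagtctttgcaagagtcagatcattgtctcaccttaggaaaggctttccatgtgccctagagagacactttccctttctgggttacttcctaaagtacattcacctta
ANGPTL4 1.97 kb upstream, chr19:8426967-8427166: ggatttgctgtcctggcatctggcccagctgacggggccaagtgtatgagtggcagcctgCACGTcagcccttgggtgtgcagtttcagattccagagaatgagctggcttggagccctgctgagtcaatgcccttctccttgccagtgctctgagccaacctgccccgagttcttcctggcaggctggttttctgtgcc
DDIT4 promoter, chr10:74033545-74033677: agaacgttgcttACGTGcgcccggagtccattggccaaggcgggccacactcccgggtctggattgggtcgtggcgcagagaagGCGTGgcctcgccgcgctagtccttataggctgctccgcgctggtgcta
DDIT4 23.5 kb downstream of its start, chr10:74057115-74057314: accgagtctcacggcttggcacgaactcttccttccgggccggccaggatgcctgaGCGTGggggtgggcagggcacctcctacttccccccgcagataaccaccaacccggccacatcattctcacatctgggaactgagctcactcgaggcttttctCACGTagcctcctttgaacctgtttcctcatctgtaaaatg

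HIF2α occupied 13 sites at the 4 genes, of which 9 were called in both lists, 2 in shControl only and 2 in shBMAL1 only. Each HIF2α list thus held 11 peaks at these genes, and each BMAL1 list held 0. Over all HIF2α peaks, 72.1% overlapped no BMAL1 peak in shControl and 91.0% in shBMAL1 cells. Of all protein-coding genes, 5.34% had a HIF2α peak in shControl and 4.7% in shBMAL1 cells, and 8.98% and 3.99% had a BMAL1 peak. Of the 11 shControl peaks 9 overlapped a shBMAL1 peak by at least 1 bp, where 57.7% of all shControl HIF2α peaks did. Of the 11 shBMAL1 peaks 9 overlapped a shControl peak, where 63.9% of that list did. The choice of genes with peaks in both lists favors such overlap, and nothing was read from the excess. EGLN3 and DDIT4 had 4 sites each, ANGPTL4 had 3 and PLIN2 had 2.

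**Figure D1:**
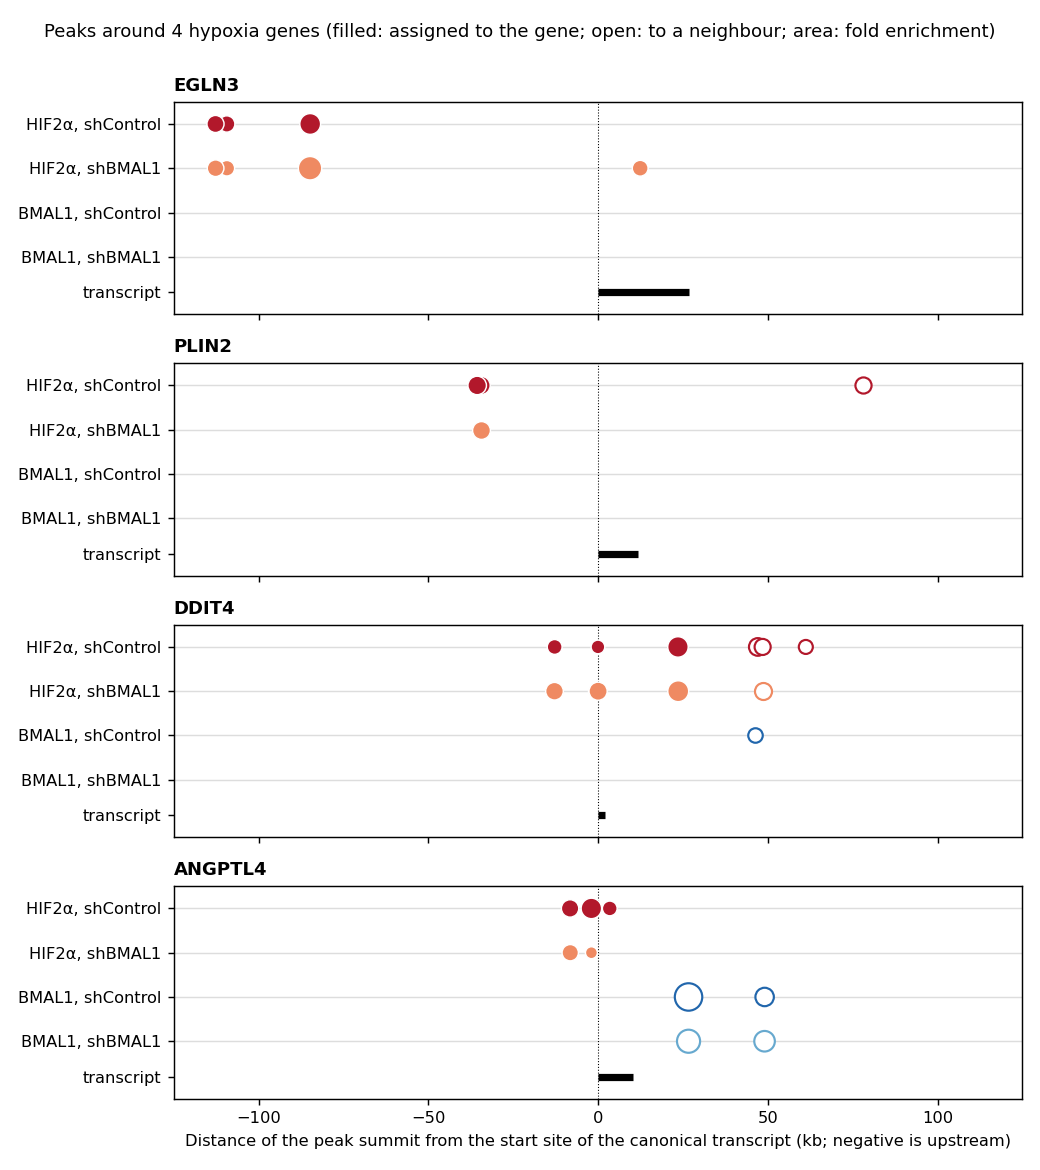
Summits of peaks in the 4 lists within 120 kb of the start site of the canonical transcript of each gene (x axis, kb, negative is upstream), with the transcript as a black bar and the area of each point rising with fold enrichment. Filled points are peaks assigned to the gene and open points belong to a neighbor. EGLN3 and PLIN2 have no BMAL1 peak in the plotted range, while DDIT4 and ANGPTL4 have BMAL1 peaks at 46.1 kb and 26.6 kb that belong to neighbors, and the DDIT4 point at 751 bp upstream lies under the point at its start.

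Most of these peaks lay away from promoters. A promoter reached from 1000 bp before a protein-coding start site to 100 bp after it, and promoters held 1 of 11 shControl peaks and 2 of 11 shBMAL1 peaks, all at DDIT4. Over the whole lists, 17.4% and 15.2% of HIF2α peaks lay in a promoter. Of the 11 shControl peaks 7 lay outside every protein-coding gene, and 4 lay inside the gene they were assigned to. Across the list, 45.8% of shControl HIF2α peaks lay outside such genes.

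The EGLN3 peaks lay far upstream of the canonical start, at 84.8, 109.4 and 112.7 kb, in an intron of a longer protein-coding transcript that starts at position 34692083. The strongest of these, 84.8 kb upstream (chr14:34504889-34505273), had a fold enrichment over local background of 13.4 and rank 136 by p in shControl cells, and 17.4 and rank 77 in shBMAL1 cells. At 112.7 kb upstream the fold was 8.63 in shControl and 8.13 in shBMAL1 cells, and the rank went from 372 to 740. At 109.4 kb upstream the fold was 7.72 and 6.89, and the rank went from 591 to 672. Fold thus stayed close at these neighboring sites while the rank moved lower in the shBMAL1 list. The remaining EGLN3 peak, in an intron 12.4 kb downstream of the canonical start (chr14:34407745-34407973), was called in shBMAL1 cells only, with a fold of 7.21 and rank 755 of 1089.

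Both PLIN2 peaks were intergenic and lay upstream of the gene. The peak 34.5 kb upstream of the canonical start (chr9:19161787-19162111) is 12.7 kb upstream of the nearest protein-coding start of the gene. Its fold was 10.1 at rank 383 in shControl cells and 9.53 at rank 302 in shBMAL1 cells, with summits 10 bp apart. A further peak 35.6 kb upstream was called in shControl cells only, with a fold of 10.3 and rank 371. The PLIN2 sites were therefore of nearly equal strength in shControl cells, yet only the site nearer the gene was called in both lists. Of the stretches of 31 bases in the window of the shControl-only peak 87.6% occurred at a single place in hg19, and the most repeated of them occurred 68 times. All of the 31-base stretches were unique in the windows of the other sites, except that 99.4% were in the shBMAL1 window of DDIT4 at 23.6 kb. Windows with only unique stretches made up 84.1% of the shControl and 83.6% of the shBMAL1 HIF2α list. The part of repeats in the call at PLIN2 was not tested.

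ANGPTL4 held the largest difference between the lists among the 9 shared sites. The peak 1.97 kb upstream of the canonical start, and 1106 bp upstream of the nearest start (chr19:8426836-8427246), had a fold of 13.0 and rank 122 of 1204 in shControl cells. In shBMAL1 cells the fold was 3.55 and the rank 1056 of 1089. The summits lay 13 bp apart, the peak was 411 bp wide in shControl and 143 bp wide in shBMAL1 cells, and −log10 p was 45.7 and 9.84, against a smallest value of 8.92 in the shBMAL1 list. The log2 difference in fold, shBMAL1 minus shControl, was −1.87. Of 698 overlapping HIF2α peak pairs genome-wide, 4 fell further in fold and 0 fell further in rank. At the peak 8.24 kb upstream the fold was 9.01 in shControl and 7.79 in shBMAL1 cells, at ranks 402 and 685. The third ANGPTL4 peak, in an intron 3.45 kb downstream of the start (chr19:8432381-8432524), was called in shControl cells only, with a fold of 6.10 at rank 837. Each ANGPTL4 site thus stood lower in the shBMAL1 list or was not called there.

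Among the 4 genes, DDIT4 alone had a HIF2α peak in its promoter, and the 3 sites it had in both lists had a higher fold in shBMAL1 cells. At the start site the summit lay 33 bp upstream in shControl cells (chr10:74033563-74033776), with a fold of 5.06 at rank 353. In shBMAL1 cells it lay 11 bp downstream, with a fold of 9.91 at rank 96. The log2 difference of 0.97 was exceeded by 30 of the 698 pairs. The peak 12.8 kb upstream had a fold of 6.19 at rank 714 in shControl and 9.30 at rank 282 in shBMAL1 cells. The widest of the peaks at the 4 genes, 953 bp long and 23.5 kb downstream of the start between DDIT4 and DNAJB12 (chr10:74057026-74057978), differed little, with a fold of 13.0 at rank 78 in shControl and 13.6 at rank 94 in shBMAL1 cells. A peak 751 bp upstream of the start (chr10:74032796-74033052) was called in shBMAL1 cells only, with a fold of 5.39 at rank 836.

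**Figure D2:**
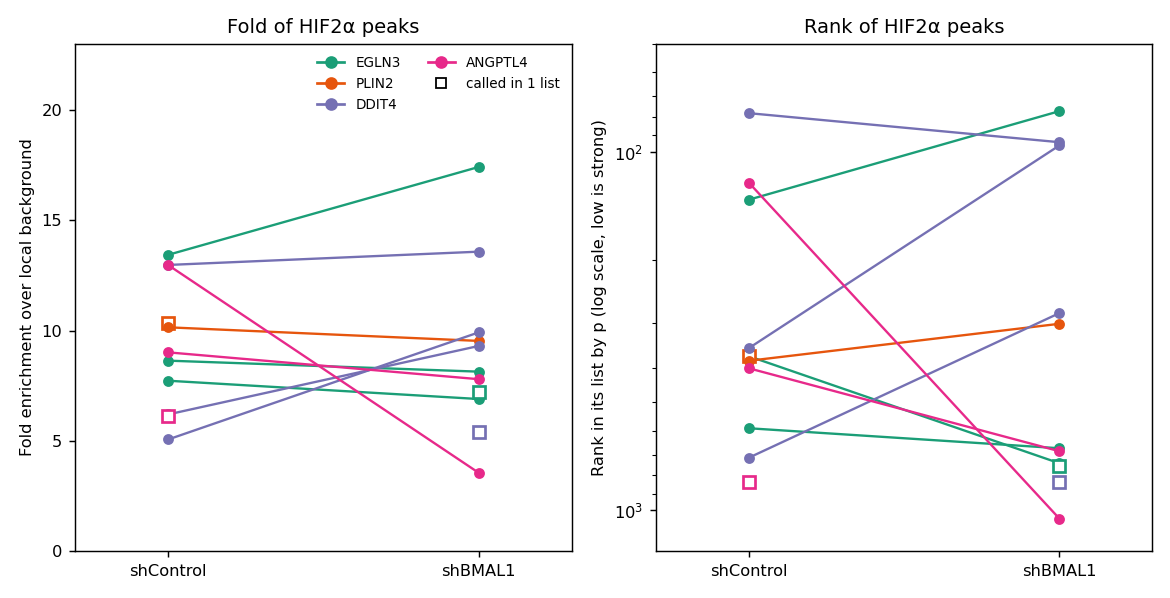
Fold enrichment over local background (left) and rank by p on a log scale (right, with strong peaks at the top) of the HIF2α peaks at the 4 genes in shControl and shBMAL1 cells. Lines join the 9 sites called in both lists and open squares are the 4 sites called in 1 list. The steepest fall is the ANGPTL4 site, from a fold of 13.0 to 3.55, and the DDIT4 promoter rises from 5.06 to 9.91.

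The genes therefore did not move together between the lists. Fold was higher in shBMAL1 cells at 4 of the 9 shared sites, where 51.1% of all 698 pairs were higher. The median log2 difference was −0.09 at the 4 genes and 0.02 over all pairs. Summits of the 9 shared sites lay 10 to 77 bp apart with a median of 42 bp, against a median of 26.5 bp over all pairs. In shControl cells the 11 peaks ranked from 78 to 837, and their median stood in the top 30.9% of the list. In shBMAL1 cells the 11 peaks, which are not all at the same sites, ranked from 77 to 1056 with a median in the top 61.7%. At the 9 shared sites alone the median stood in the top 30.9% in shControl and the top 27.7% in shBMAL1 cells. The 4 sites called in 1 list ranked 371 or lower. The shControl-only peak at ANGPTL4 fell among ranks 724 to 960, of which 35.8% were called in shBMAL1 cells, whereas ranks 1 to 240 were called in 95.0% of cases. The shControl-only peak at PLIN2 fell among ranks 241 to 480, of which 76.8% were called in shBMAL1 cells. The shBMAL1-only peaks of EGLN3 and DDIT4 fell among ranks 658 to 871 of their list, of which 47.2% were called in shControl cells.

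**Figure D3:**
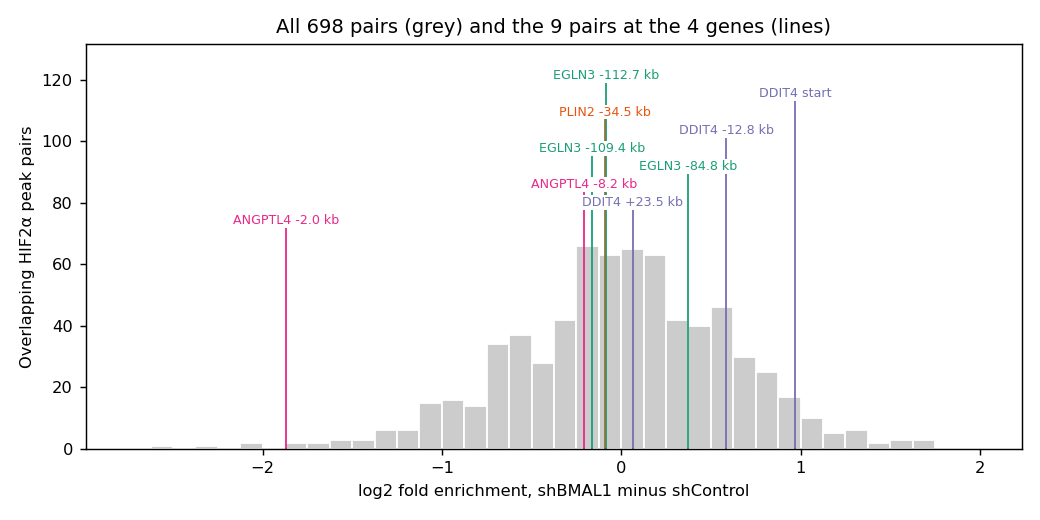
Log2 difference in fold enrichment, shBMAL1 minus shControl (x axis), for all 698 overlapping HIF2α peak pairs (grey bars, number of pairs) and for the 9 pairs at the 4 genes (colored lines, with the distance of each summit from the canonical start). Most lines fall in the bulk of the distribution, while the ANGPTL4 site at −1.87 lies in its left tail and the DDIT4 start at 0.97 towards its right.

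HRE cores were present in most windows of 200 bp at these summits, as in the list as a whole, but in fewer windows of 100 bp, at 5 of 11 shControl summits and in 43.4% of that list. Both strands of 200 bp around each summit were searched for ACGTG and GCGTG, and overlapping matches were counted as 1. A core was found at 9 of 11 shControl summits, against 70.8% of all windows in that list and 74.1% of those without a BMAL1 overlap. In shBMAL1 cells 7 of 11 summits had a core, against 69.5% of the list. With the same 200 bp, NDRG1 and SLC2A1 had a core at 7 of 9 shControl summits. Some windows reach past the called peak. Inside the called peaks, 8 of 11 shControl and 6 of 11 shBMAL1 peaks at the 4 genes held a core, against 73.4% and 71.3% of the lists. A core count near that of the list is no feature of the 4 genes.

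The sites differed in the number and place of cores. The EGLN3 site 109.4 kb upstream had 4, among them the only E-box CACGTG at the 4 genes, with a GC content of 75.5%. An E-box was thus found at 1 of 11 shControl summits, against 6.81% of the HIF2α list and 12.9% of the shControl BMAL1 list, and no BMAL1 peak was called there. The strongest EGLN3 site had 1 core, 85 bp from the shControl summit, and the window at its shBMAL1 summit, 42 bp away, held 0. The DDIT4 start had 3 cores around the shControl summit, 14, 64 and 86 bp from it, of which the core at 86 bp lay outside the called peak. No core was found at the shControl summits of DDIT4 12.8 kb upstream and ANGPTL4 8.24 kb upstream, nor at the shBMAL1-only peaks of EGLN3 and DDIT4. At the first of these the shBMAL1 summit, 47 bp away, had 2 cores in its window, both outside the called peak.

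AP-1 sites, TGACTCA or TGAGTCA, are bound by the FOS and JUN family and were found at 3 of 11 summits in each list, against 27.5% of shControl and 26.5% of shBMAL1 windows. They were at EGLN3 84.8 kb upstream and at ANGPTL4 1.97 and 8.24 kb upstream. The GC box GGGCGG was found at 4 of 11 shControl summits, against 18.4% of that list and 61.6% of the shControl BMAL1 list. None of these letters identifies the factor that bound.

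**Figure D4:**
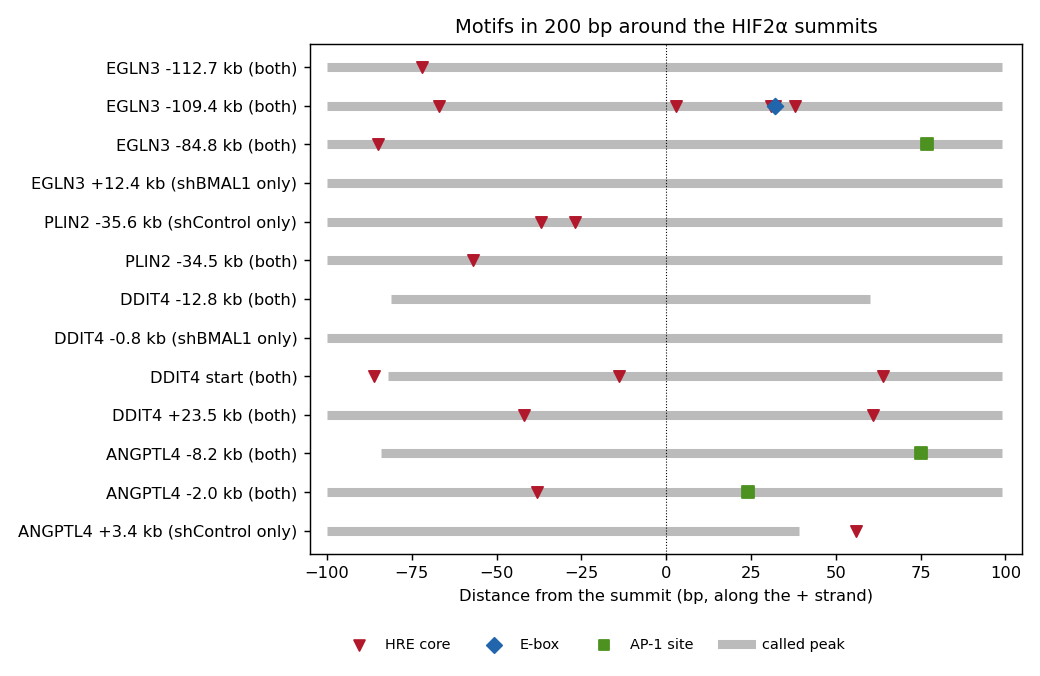
Matches to the HRE core (red triangles), the E-box (blue diamond) and the AP-1 site (green squares) by distance from the HIF2α summit (x axis, bp along the plus strand) at the 13 sites, with the called peak as a grey bar. The shControl summit was used unless the site was called in shBMAL1 cells only. The EGLN3 site at 109.4 kb has 4 HRE cores and the only E-box, and 4 sites have no HRE core in the window.

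The absence of BMAL1 peaks at the 4 genes covered very different distances. From the EGLN3 sites, the nearest shControl BMAL1 summit lay 9791 kb away or more, at PSME2 and RNF31. From the PLIN2 sites it lay 3855 kb away or more, at TTC39B. By contrast the nearest shControl BMAL1 peak to the DDIT4 sites lay 22.6 to 58.9 kb away, next to DNAJB12 (chr10:74079739-74079974), with a fold of 5.85 at rank 1508 of 1812, and it was not called in shBMAL1 cells. The nearest to the ANGPTL4 sites lay 23.2 to 34.9 kb away at RAB11B (chr19:8454991-8455912), with a fold of 24.3 at rank 157 in shControl and 16.8 at rank 165 of 768 in shBMAL1 cells. Of the 11 shControl HIF2α peaks 5 had a BMAL1 summit within 50 kb, as did 19.1% of the 868 HIF2α peaks that overlapped no BMAL1 peak. The distances at the 4 genes fell into separate ranges for DDIT4 and ANGPTL4 and for PLIN2 and EGLN3, so that their median of 58.9 kb rested on 1 DDIT4 peak, and it was 5120 kb with only peaks of p at or under 1e-20. The median over those 868 peaks was 318.7 kb. With assignment of every peak within 50 kb of a start site, EGLN3 and PLIN2 kept the pattern, while DDIT4 and ANGPTL4 gained 3 shControl BMAL1 peaks together.

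**Figure D5:**
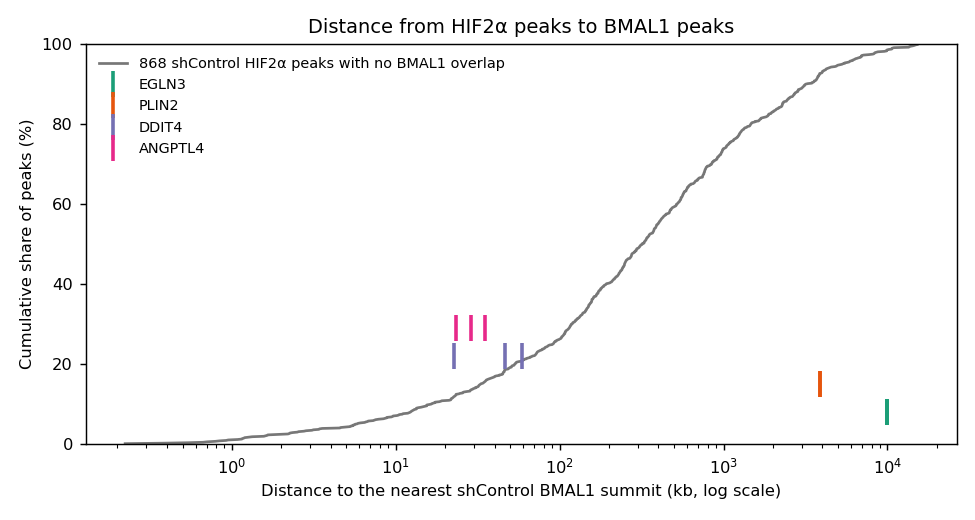
Distance from each shControl HIF2α summit to the nearest shControl BMAL1 summit (x axis, kb, log scale). The grey line is the cumulative share of the 868 HIF2α peaks without BMAL1 overlap (y axis, %), and colored ticks are the peaks of the 4 genes, placed at arbitrary heights. DDIT4 and ANGPTL4 lie between 22.6 and 58.9 kb, and PLIN2 and EGLN3 lie 3855 kb away or more.

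NDRG1 and SLC2A1, hypoxia genes that encode a stress-responsive protein and the glucose transporter GLUT1, gave the closest contrast. They had 9 HIF2α sites, all called in both lists, and 4 shControl BMAL1 peaks, of which 0 were called in shBMAL1 cells. Over the whole lists, 57.7% of shControl HIF2α peaks overlapped a shBMAL1 peak, and BMAL1 peaks went from 1812 to 768. The 4 BMAL1 peaks of NDRG1 and SLC2A1 had ranks from 575 to 1506 of 1812 and folds from 5.37 to 8.19. Of the 4, 1 stood in the stronger part of its list, above the median rank, so their absence from the shorter list was not read as a trait of these genes. The HIF2α peaks of NDRG1 and SLC2A1 ranked from 38 to 1060 in shControl cells, with a median in the top 19.4%, against 30.9% for the 4 genes. In shBMAL1 cells the medians stood in the top 29.2% for NDRG1 and SLC2A1 and the top 61.7% for the 4 genes. The latter includes peaks called in shBMAL1 cells only, whereas all sites of NDRG1 and SLC2A1 were shared. At the shared sites of the 4 genes alone, the median stood in the top 30.9% in shControl and the top 27.7% in shBMAL1 cells. The wider gap was therefore not read as a loss of strength at the 4 genes. Both gene sets reached from strong to weak peaks and overlapped in rank.

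The 4 genes often carried several HIF2α peaks. EGLN3, DDIT4 and ANGPTL4 had 3 in shControl cells, a number reached by 49 of the 1075 genes with any (4.56%), and PLIN2 had 2, a number reached by 172 of them. The choice of genes with peaks in both lists favors genes with several peaks, so these counts are a description. They were not set against the 666 genes with HIF2α peaks in both lists. NDRG1 had 5 and SLC2A1 had 4, so that several peaks were not particular to the 4 genes.

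Other genes of the same pathways were counted from 5 lists, which were chosen with earlier results of these data known. Over 68 other genes, 23 had a shControl HIF2α peak, where 5.34% of all protein-coding genes did. Of the 68, 10 had HIF2α peaks in both lists without a BMAL1 peak, where 1.88% of all genes did. Most genes have no HIF2α peak, and of all genes with HIF2α peaks in both lists, 379 of 666 (56.9%) had no BMAL1 peak. The 10 were therefore not read as a lack of BMAL1 particular to these pathways. Of these 10, 9 came from 25 other hypoxia-induced genes: SLC2A3, ADM, BNIP3L, PGK1, ENO1, ALDOA, CXCR4, P4HA1 and KDM3A. The strongest of them was at ALDOA, a glycolytic enzyme, with a fold of 14.9 at rank 39 in shControl and 20.6 at rank 21 in shBMAL1 cells. The tenth was HILPDA, an inhibitor of lipid droplet breakdown, with a fold of 9.51 at rank 168 in shControl and 6.39 at rank 273 in shBMAL1 cells.

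Among 13 other lipid droplet genes, HILPDA had HIF2α peaks in both lists and PLIN3 had a peak in shBMAL1 cells only. Of the 9 other oxygen sensing genes, EGLN1 had a weak shBMAL1-only peak with a fold of 4.26 at rank 1027, and EGLN2 had BMAL1 peaks only. EPAS1 and ARNT, which encode the subunits of the HIF2α complex, had 11 and 14 HIF2α peaks in shControl cells, all of them overlapping exons. They also had 10 and 14 shControl BMAL1 peaks on exons. In shBMAL1 cells they had 12 and 11 HIF2α peaks, 11 of each on exons, and 0 BMAL1 peaks. EPAS1 held rank 1 in both shControl lists, with a BMAL1 fold of up to 189.4. The source of this exon signal was not tested, and both genes are among the 23 counted above. Of 12 other angiopoietin-like and lipase genes, LIPC and LMF1 had HIF2α peaks in both lists together with BMAL1 peaks. ANGPTL2 and GPIHBP1 had BMAL1 peaks only. Thus 4 of the 12 had a shControl BMAL1 peak, where 8.98% of all protein-coding genes did. Among 9 other stress inputs to mTORC1, 0 had a HIF2α peak, where 5.34% of all protein-coding genes had one in shControl and 4.7% in shBMAL1 cells. With so few genes the 0 was not read as a result. SESN3, RHEB and TXNIP had shControl BMAL1 peaks, against the same 8.98% of all protein-coding genes.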

How the data were processed

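CUT&RUN libraries of 786-O cells were aligned by the authors to hg19 with Bowtie2 2.5.3, and peaks were called with MACS2 2.2.9.1 at a p threshold of 1e-05. The smallest −log10 p in the lists, from 8.64 to 9.07, lay above that threshold, and the step that set it, like the way in which libraries were combined into 1 list per group, is not given in the sources used here. Whether IgG served as the control is not given in the sources used here. The labels call the libraries of a group biological replicates, whereas the study's reporting summary describes technical ones, and 1 BMAL1 library of shBMAL1 cells was left out by the authors for few reads. In the deposited lists, fold enrichment is a ratio over local background, significance is −log10 p and the summit is an offset from the peak start (another unit, in bp). The deposited −log10 q column was not used. Depth is unknown, since no file holds reads, and the precision of a fold cannot be given.

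Peaks were assigned with GENCODE v44lift37 and overlaps taken at 1 bp, in Python 3.11.15 with pandas 2.3.3, numpy 2.4.6 and pysam 0.24.0. Overlap, assignment and motif search were tested on simulated data. Ranks follow −log10 p, within a list. The named genes are the 4 genes, NDRG1 and SLC2A1, genes of 5 pathway lists with a peak, and genes of the nearest BMAL1 peaks. The members and lists were chosen with earlier results of these data known. No test was made, as each group has 1 list. The sequence of 1 PLIN2 site is not reported here.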

Additional observations from a re-analysis of the deposited data

How the results depend on the processing

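No paired analysis was possible because each group has 1 list without replicate values, and for the same reason no library could be left out. Of 111 values under 19 other settings, 77 stayed within 1.5 times the value reported, or within its 95% Wilson interval for a share of peaks, and 34 did not. The 0 BMAL1 peaks at the 4 genes became 3 (shControl) and 2 (shBMAL1) with assignment within 50 kb and within 100 kb, and 2 of the 4 genes then kept HIF2α peaks in both lists without BMAL1. With peaks inside the gene body only, 1 gene kept it, the HIF2α peaks fell to 4 in shControl and 5 in shBMAL1 cells, and 208 of all genes had the pattern. Assignment within 10 kb left 7 shControl HIF2α peaks. Over all genes the pattern was held by 692 within 100 kb. With only peaks of p at or under 1e-20, 5 shBMAL1 HIF2α peaks and 4 shared sites were left, 249 genes had the pattern, the median distance to BMAL1 was 5120 kb, the median rank stood at 62.5% of the shorter list, 10 other pathway genes had a shControl BMAL1 peak, and the shares of the HIF2α list were 74.4% with an HRE core and 12.8% in a promoter. With the strongest 768 peaks of each list the distance was 5889 kb, the median rank stood at 48.4%, 9 other pathway genes had a shControl BMAL1 peak, 63.3% of shControl HIF2α peaks were shared, 74.2% had an HRE core and 14.7% lay in a promoter. Requiring summits within 100 bp left 53.0% shared. An HRE core was found at 5 of the 11 summits in windows of 100 bp, and in 43.4% of the list. The share of the list was 84.1% with 400 bp, 73.4% over whole peaks and 67.4% at midpoints. With promoters of 2500 bp to each side, 2 shControl peaks at the 4 genes and 26.0% of the list lay in one. Wider assignment gives more BMAL1 peaks to a gene, and stricter lists or shorter windows hold fewer peaks or bases by construction. The cause of the other changes was not tested.

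Signal under the threshold at sites not called was not measured, and fold and rank belong to lists of unequal length and unknown depth.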

Other observations

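Within 120 kb of the DDIT4 and PLIN2 starts lay further HIF2α peaks assigned to other genes. Beyond DDIT4, shControl HIF2α peaks lay 47.1, 48.5 and 61.2 kb downstream of its start and were assigned to DNAJB12, with folds of 9.30, 7.49 and 5.36, and the peak at 48.5 kb was called in shBMAL1 cells too, with a fold of 8.54. The shControl BMAL1 peak of DNAJB12 lay 46.1 kb from the DDIT4 start. A shControl-only HIF2α peak with a fold of 7.56 lay 78.2 kb downstream of the PLIN2 start at SAXO1. Near ANGPTL4, a further BMAL1 peak lay 49.1 kb downstream at MARCHF2, with a fold of 10.3 in shControl and 13.1 in shBMAL1 cells. SAXO1 and MARCHF2 were named after their values were seen.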
